A study of Homo sapiens with 24 samples.

Results

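The 10 genes described here encode proteins that detect DNA double-strand breaks (DSBs) and pass the signal on: MRE11A, RAD50, NBN, ATM, ATR, CHEK1, CHEK2, H2AFX, MDC1 and RNF8. They were chosen by name and make up 10 of the 57820 genes in the count files. All 10 passed the filter on low counts in all 14 comparisons. H2AFX and MRE11A are older symbols of H2AX and MRE11, kept here because the files use them.

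RNA was sequenced from 24 libraries in 8 groups of 3 biological replicates, all from human U2OS osteosarcoma cells. Each set held wild-type (WT) cells and cells with a knockout (KO) of ID3, a protein that binds basic helix-loop-helix transcription factors and keeps them off DNA. In each genotype, untreated cells were set beside cells given mocetinostat, an inhibitor of class I histone deacetylases (HDACs), for 24 h. The 12 AID-DIvA libraries came from a U2OS derivative that carries an inducible AsiSI nuclease, and their treated cells had 24 h of recovery in drug-free medium. The treated cells of the 12 libraries titled U2OS were taken as collected before recovery, from the series text and the study's methods. None of the sources used here states that the nuclease was induced, which drug dose was used for these libraries, or how many knockout clones they came from.

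Several labels limit what the groups can show. The AID-DIvA groups follow the sample titles, whereas the treatment field of all 12 libraries states the opposite. Under that field every AID-DIvA treatment difference would change sign, the untreated and treated genotype comparisons would trade places, and the AID-DIvA interaction would change sign. The library names of the 12 U2OS libraries also carry the word DivA. The stage of collection and the cell line label coincide, so they cannot be told apart.

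DSBs are first bound by the MRN complex of MRE11, RAD50 and NBN, which recruits and activates the kinase ATM. ATM phosphorylates the histone variant H2AX, MDC1 binds that mark and RNF8 then ubiquitinates the surrounding chromatin. ATR, which responds to single-stranded DNA at resected ends and stalled forks, activates CHK1, and ATM activates CHK2. Much of this signalling runs through phosphorylation, which RNA levels do not measure.

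Library totals ran from 37878751 to 76906266 counts in the AID-DIvA set and from 46285533 to 70692114 in the U2OS set. U2OS WT untreated replicate 1 stood apart. It had counts in 27361 genes, against 30832 and 29364 in the other two of its group, although its total of 66049658 was not low. The main results for the 10 genes that rest on it are also given without it. Other values are given only with it, among them ID3 levels, cell cycle medians, named genes of the wider list and correlations. ID3 transcripts averaged 50.4 ± 2.2 CPM in untreated AID-DIvA WT cells and 34.8 ± 3.6 in the KO, and 62.4 ± 15.9 against 30.6 ± 1.5 CPM in untreated U2OS cells (CPM, counts relative to the library total; SD, n = 3). ID3 RNA was thus lower in the KO but still present. Of 8 bone and mesenchymal markers, 5 had a median of at least 1 CPM, whereas the osteoblast markers SP7 and BGLAP and the collagen gene COL1A2 were below that. The leukocyte markers PTPRC and CD3E and the endothelial marker CDH5 did not reach it. Of 3 epithelial markers EPCAM did, with a median of 6.39 CPM and a range from 4.43 to 10.4, while CDH1 and KRT5 did not. In bulk RNA, a change in the cells present and a change in RNA per cell cannot be told apart.

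Per kilobase of exon, H2AFX was the most abundant of the 10 genes, with a median of 169.9 RPKM (CPM per kb) over the 24 libraries. MDC1, the adaptor that reads the phosphorylated histone, followed at 28.6 RPKM. The MRN genes lay lower, at 10.7 RPKM for MRE11A, 8.69 for NBN and 6.70 for RAD50. The effector kinases CHEK1 and CHEK2 stood at 6.93 and 6.80 RPKM and RNF8 at 5.68. The apical kinases ATR and ATM were the lowest, at 3.39 and 1.75 RPKM. These medians are between-gene levels and depend on the annotated exonic length, 22317 bases for ATM and 1614 for H2AFX. Counts from either strand recovered a median of 89.8% of the reverse-strand counts for MDC1, 93.2% for RAD50 and 93.5% for MRE11A, all of which overlap genes on the opposite strand. The levels of these 3 genes are therefore understated relative to the others.

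**Figure D1:**
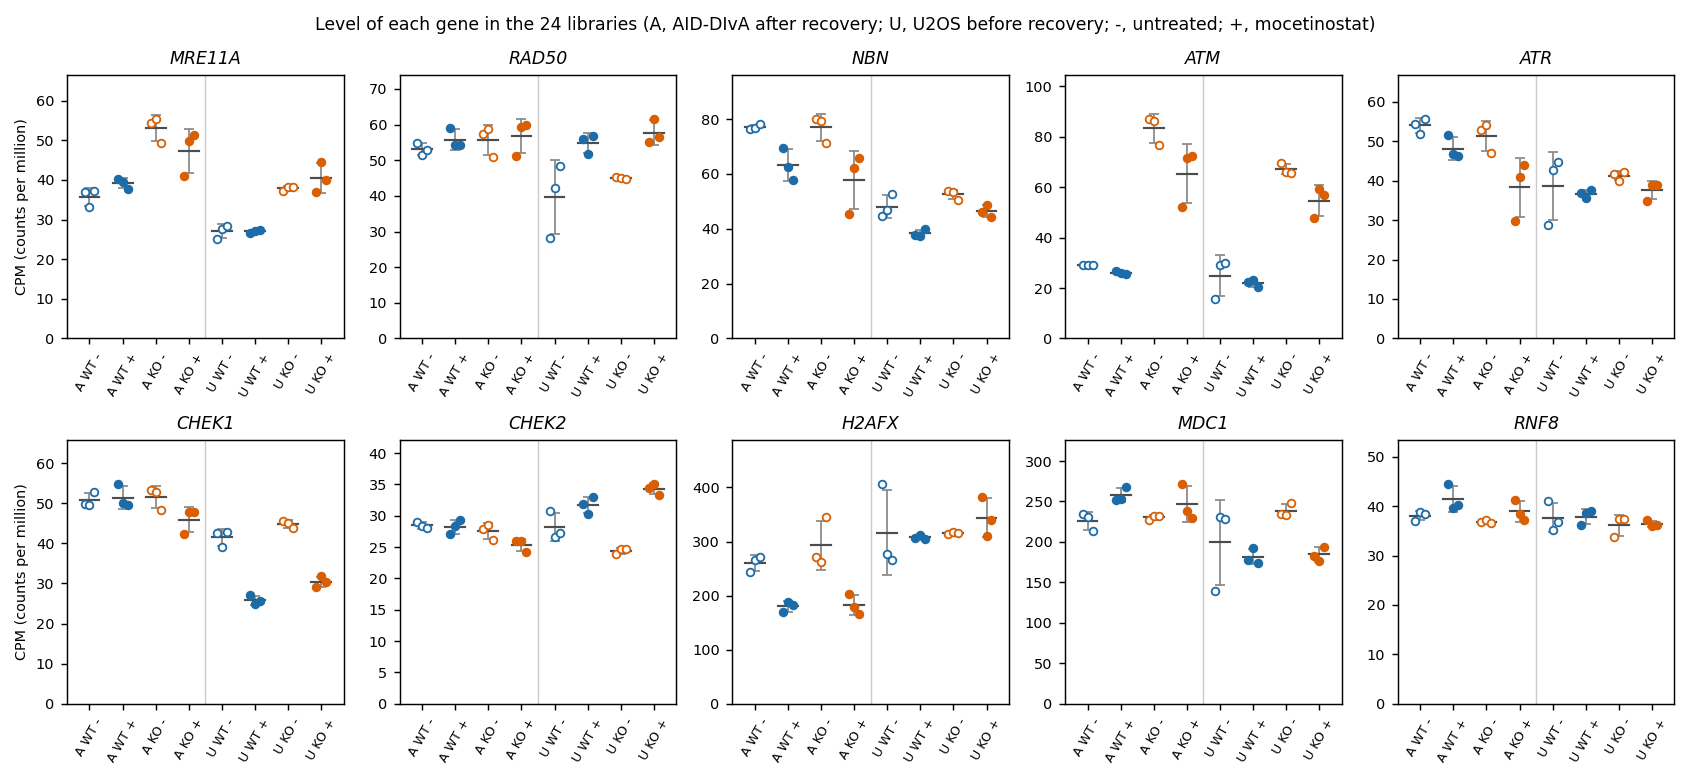
Level of each of the 10 genes in CPM (vertical axis) in the 24 libraries, by group (horizontal axis; A, AID-DIvA; U, U2OS; minus, untreated; plus, mocetinostat). Points are libraries, blue for WT and orange for ID3-KO, open for untreated and filled for treated; lines are group means and bars are SD (n = 3). ATM lies above 47 CPM in every KO library and below 31 CPM in every WT library.

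Across the 8 groups, ATM varied most, from a group mean of 21.9 CPM in treated U2OS WT cells to 83.4 CPM in untreated AID-DIvA KO cells, a 3.8-fold range. In order of rising mean the 4 WT groups came before the 4 KO groups, and 4 of the 7 neighbouring pairs in that order overlapped. RNF8 varied least, from 36.2 to 41.5 CPM, a 1.15-fold range, and all 7 neighbouring pairs overlapped. The ranges of the other genes lay between 1.4-fold for CHEK2 and 2.01-fold for NBN. As the plot of levels by library shows, the lowest mean of MRE11A, NBN, ATR, CHEK1 and MDC1 was also in treated U2OS WT cells.

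The promoters of the 4 genes whose levels the comparisons below turn on are shown here, with CCAAT boxes (CCAAT on either strand) and CHR elements (TTTGAA on either strand) in capitals. CCAAT boxes bind NF-Y and CHR elements are found in promoters of cell cycle genes. Each is the longest stretch without an annotated exon within the 250 bases upstream of a RefSeq start (GRCh38.p14 table), placed in GRCh37 by an exact match and written on the gene's strand. The ATM stretch lies at chr11:108093544-108093770 and that of CHEK1 at chr11:125495930-125496123, both on the plus strand. That of MRE11A lies at chr11:94227052-94227144 and that of H2AFX at chr11:118966176-118966425, both on the minus strand. In the annotation of the count files the ATM and CHEK1 stretches lie inside the gene, downstream of its start at 108093211 and 125495036. Those of MRE11A and H2AFX reach into the gene, which starts at 94227074 and 118966177.
ATM: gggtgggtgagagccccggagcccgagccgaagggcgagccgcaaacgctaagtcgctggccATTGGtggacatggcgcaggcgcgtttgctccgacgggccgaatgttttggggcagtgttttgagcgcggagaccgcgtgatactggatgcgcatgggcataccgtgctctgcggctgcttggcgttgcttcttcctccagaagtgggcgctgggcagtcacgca
MRE11A: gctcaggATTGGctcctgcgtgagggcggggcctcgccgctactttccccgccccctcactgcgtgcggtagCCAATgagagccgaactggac
CHEK1: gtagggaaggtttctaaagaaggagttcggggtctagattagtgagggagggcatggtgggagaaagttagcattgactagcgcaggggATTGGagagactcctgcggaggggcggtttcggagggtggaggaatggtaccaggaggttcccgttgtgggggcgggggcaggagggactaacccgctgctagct
H2AFX: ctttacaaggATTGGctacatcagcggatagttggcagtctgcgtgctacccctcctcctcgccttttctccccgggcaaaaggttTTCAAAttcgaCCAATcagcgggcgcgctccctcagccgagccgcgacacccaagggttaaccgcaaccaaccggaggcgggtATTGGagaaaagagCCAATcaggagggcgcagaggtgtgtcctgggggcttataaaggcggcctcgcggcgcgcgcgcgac

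H2AFX held 4 CCAAT boxes and 1 CHR element in its 250 bases. At least 4 CCAAT boxes were present in 0.877% of 34788 distinct RefSeq windows of that length. Of the 9 genes with an entry, 7 held at least 1 CCAAT box, against 32% of all windows. An E-box (CANNTG on either strand), the site of the factors that ID3 restrains, was found in the first RefSeq entry of 4 of the 9 genes, in any entry of 5 of the 9 and in 61.8% of all windows, and there was none in the ATM and H2AFX windows. An E2F-like motif (TTTNNCGC on either strand) was present in 1 of the 9 and in 5.89% of all windows, and TTTGAA in 3 of the 9 and in 13.3%. These are letter matches only.

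ID3-KO cells were compared with WT cells in each set and treatment. ATM, the apical kinase of the DSB response, was higher in the KO in all 4 comparisons. In untreated AID-DIvA cells the 3 WT libraries stood at 29.1, 29.0 and 29.0 CPM and the KO libraries at 87.2, 86.1 and 76.8. The difference was 1.5 ± 0.05 on the log2 scale (SE; edgeR, adjusted p = 5.2e-12), a 2.83-fold higher level. After treatment and recovery the WT libraries stood at 26.8, 26.1 and 25.4 CPM and the KO libraries at 52.0, 71.7 and 72.4. The groups did not overlap, and the difference was 1.31 ± 0.13 (adjusted p = 6.6e-05).

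The same direction was found in the U2OS set. Untreated WT libraries stood at 15.7, 29.1 and 30.1 CPM for ATM and KO libraries at 69.4, 66.1 and 65.7, a difference of 1.43 ± 0.22 (adjusted p = 0.0058). The low value of 15.7 CPM belongs to replicate 1, and without it the difference was 1.18 ± 0.04 (adjusted p = 2.5e-23). In treated U2OS cells WT libraries stood at 22.5, 23.1 and 20.3 CPM and KO libraries at 47.8, 59.4 and 56.8. This difference was 1.32 ± 0.07 (adjusted p = 5e-13), and every KO library again exceeded every WT library.

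MRE11A, the nuclease subunit of the MRN complex, was also higher in the KO in 3 of the 4 comparisons. Untreated AID-DIvA WT libraries stood at 36.9, 33.1 and 37.1 CPM and KO libraries at 54.4, 55.5 and 49.3, a difference of 0.55 ± 0.06 (adjusted p = 1.4e-06). In U2OS cells the difference was 0.48 ± 0.07 when untreated (adjusted p = 0.0054; 0.43 without WT replicate 1) and 0.58 ± 0.06 when treated (adjusted p = 4.4e-09). In treated and recovered AID-DIvA cells the KO libraries stood at 40.9, 49.7 and 51.4 CPM and the WT libraries at 40.1, 39.6 and 37.8. The groups did not overlap, but the difference of 0.26 ± 0.10 did not pass (adjusted p = 0.077). Without KO replicate 1, the shallowest library of that set, it was 0.36 (adjusted p = 0.0008).

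Of the remaining 8 genes, the largest difference was that of ATR in recovered AID-DIvA cells, at -0.34 ± 0.14 (adjusted p = 0.11). Without KO replicate 1 it was -0.19 (adjusted p = 0.061). In the same comparison CHEK1 stood at -0.18 ± 0.08 (adjusted p = 0.15) and CHEK2 at -0.17 ± 0.07 (adjusted p = 0.12). Only RAD50 of the 8 lay above 0 there, at 0.01 ± 0.08. In untreated AID-DIvA cells 2 of the 10 genes were higher in the KO and 0 lower, where 18.6% of all 20441 genes tested were higher and 18.1% lower. In treated and recovered AID-DIvA cells 1 of 10 was higher and 0 lower, against 12.6% and 11.1% of all genes. In untreated U2OS cells 2 of 10 were higher and 0 lower, against 6.56% and 8.63%. In untreated U2OS cells without WT replicate 1, 4 of 10 were higher and 1 lower, against 20.5% and 20.6% of all genes. CHEK1 (0.13, adjusted p = 0.017) and H2AFX (0.22, adjusted p = 1.1e-06) then joined ATM and MRE11A, and CHEK2 was lower at -0.14 (adjusted p = 0.025).

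In treated U2OS cells 5 of 10 were higher in the KO and 0 lower, against 19% of all genes in each direction. NBN, the MRN subunit that binds ATM, was 0.28 ± 0.05 higher (adjusted p = 8e-05) and CHEK1 0.24 ± 0.06 higher (adjusted p = 0.0013). H2AFX was 0.16 ± 0.05 higher (adjusted p = 0.014), with overlapping groups, and the call was lost without KO replicate 1 (0.09, adjusted p = 0.1), WT replicate 1 (adjusted p = 0.05) or WT replicate 3 (adjusted p = 0.074). RAD50, ATR, MDC1, RNF8 and CHEK2 passed in none of the 4 genotype comparisons in the main edgeR fits. ATR in recovered AID-DIvA cells did pass by DESeq2 (-0.34, adjusted p = 0.047) and in edgeR without a filter on low counts (-0.32, adjusted p = 0.002). CHEK2 in untreated U2OS cells passed with all 24 libraries in one edgeR fit (-0.21, adjusted p = 0.015).

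**Figure D2:**
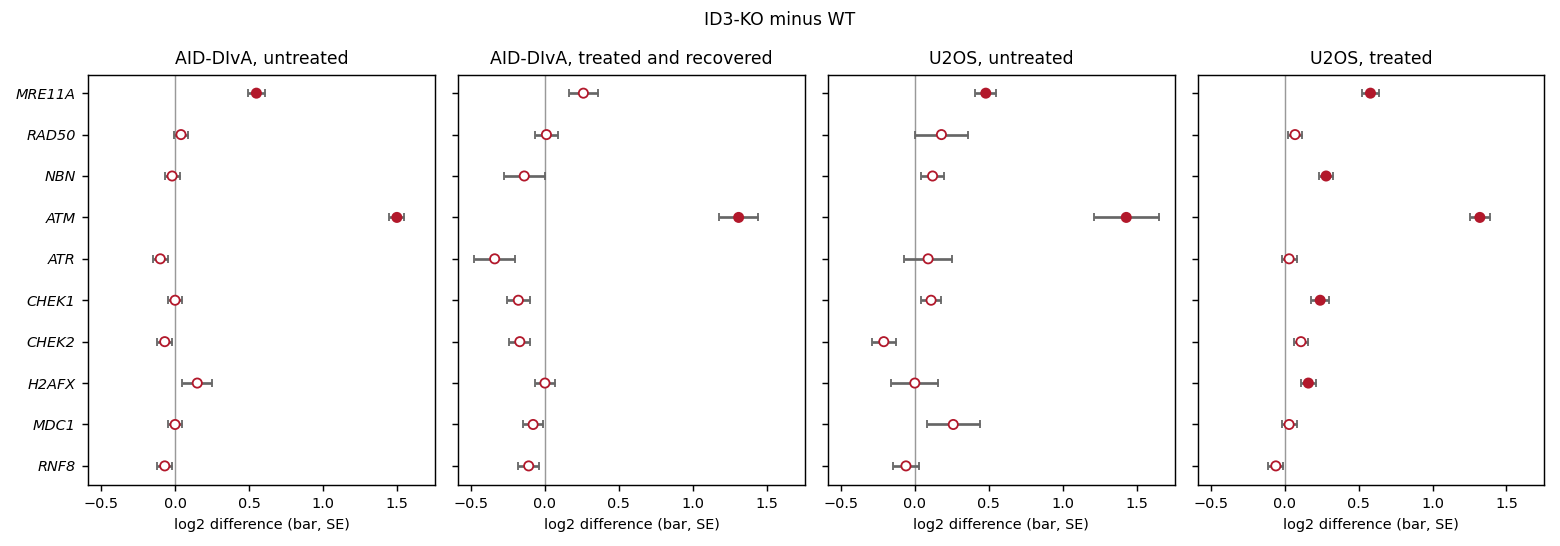
ID3-KO minus WT log2 difference (horizontal axis) of each gene in 4 comparisons; bars are SE (n = 3 a group) and filled points have an adjusted p under 0.05. ATM lies between 1.31 and 1.5 in all 4 comparisons.

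The genes around ATM and MRE11A on chromosome 11 were examined next, a step chosen after their differences had been seen. ATM lies at chr11:108093211-108239829 (GRCh37) and MRE11A at chr11:94152895-94227074. Within 5 Mb of the ATM start, 35 other genes were measured at 2 CPM or more. Their median KO minus WT difference was 1.28 in untreated and 1.2 in treated and recovered AID-DIvA cells, and 1.0 in untreated and 1.16 in treated U2OS cells. In the same order 34, 35, 32 and 35 of the 35 genes were called higher in the KO. Without U2OS WT untreated replicate 1 the untreated U2OS median was 1.03, with 32 higher and 1 lower. NPAT, a histone gene regulator transcribed away from ATM, differed by 1.49, 1.26, 1.52 and 1.5.

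ATM was thus not far from its neighbours, with 74.3%, 62.9%, 77.1% and 65.7% of them showing a smaller difference. The 25 genes within 5 Mb of MRE11A had medians of 0.60, 0.50, 0.55 and 0.59. MRE11A itself stood at 0.55, 0.26, 0.48 and 0.58, and in treated and recovered AID-DIvA cells it lay below the neighbours' quartiles of 0.41 and 0.60. In windows of 5 Mb, medians lay between -0.16 and 0.20 up to 70 Mb, 0.23 to 0.56 between 70 and 95 Mb, 0.65 to 0.90 between 95 and 100 Mb and 1.0 to 1.42 between 100 and 115 Mb. From 115 Mb on they returned to between -0.09 and 0.10. Of 555 windows in the genome with at least 5 genes, 10 had medians above 0.5 in all 4 comparisons, 4 of them on chromosome 11. The only windows with medians above 1 in all 4 were 2 in number, and both lie on chromosome 11 between 100 and 110 Mb.

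CHEK1 (chr11:125495036-125546150) and H2AFX (chr11:118964564-118966177) lie on the same chromosome beyond 115 Mb. The 45 neighbours of CHEK1 had medians from -0.04 to 0.00 and the 64 neighbours of H2AFX from -0.01 to 0.05. The plot along chromosome 11 shows ATM and MRE11A on a raised stretch in each comparison and H2AFX and CHEK1 outside it. DNA copy number was not analysed here, and its part in the differences of ATM and MRE11A was not tested.

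**Figure D3:**
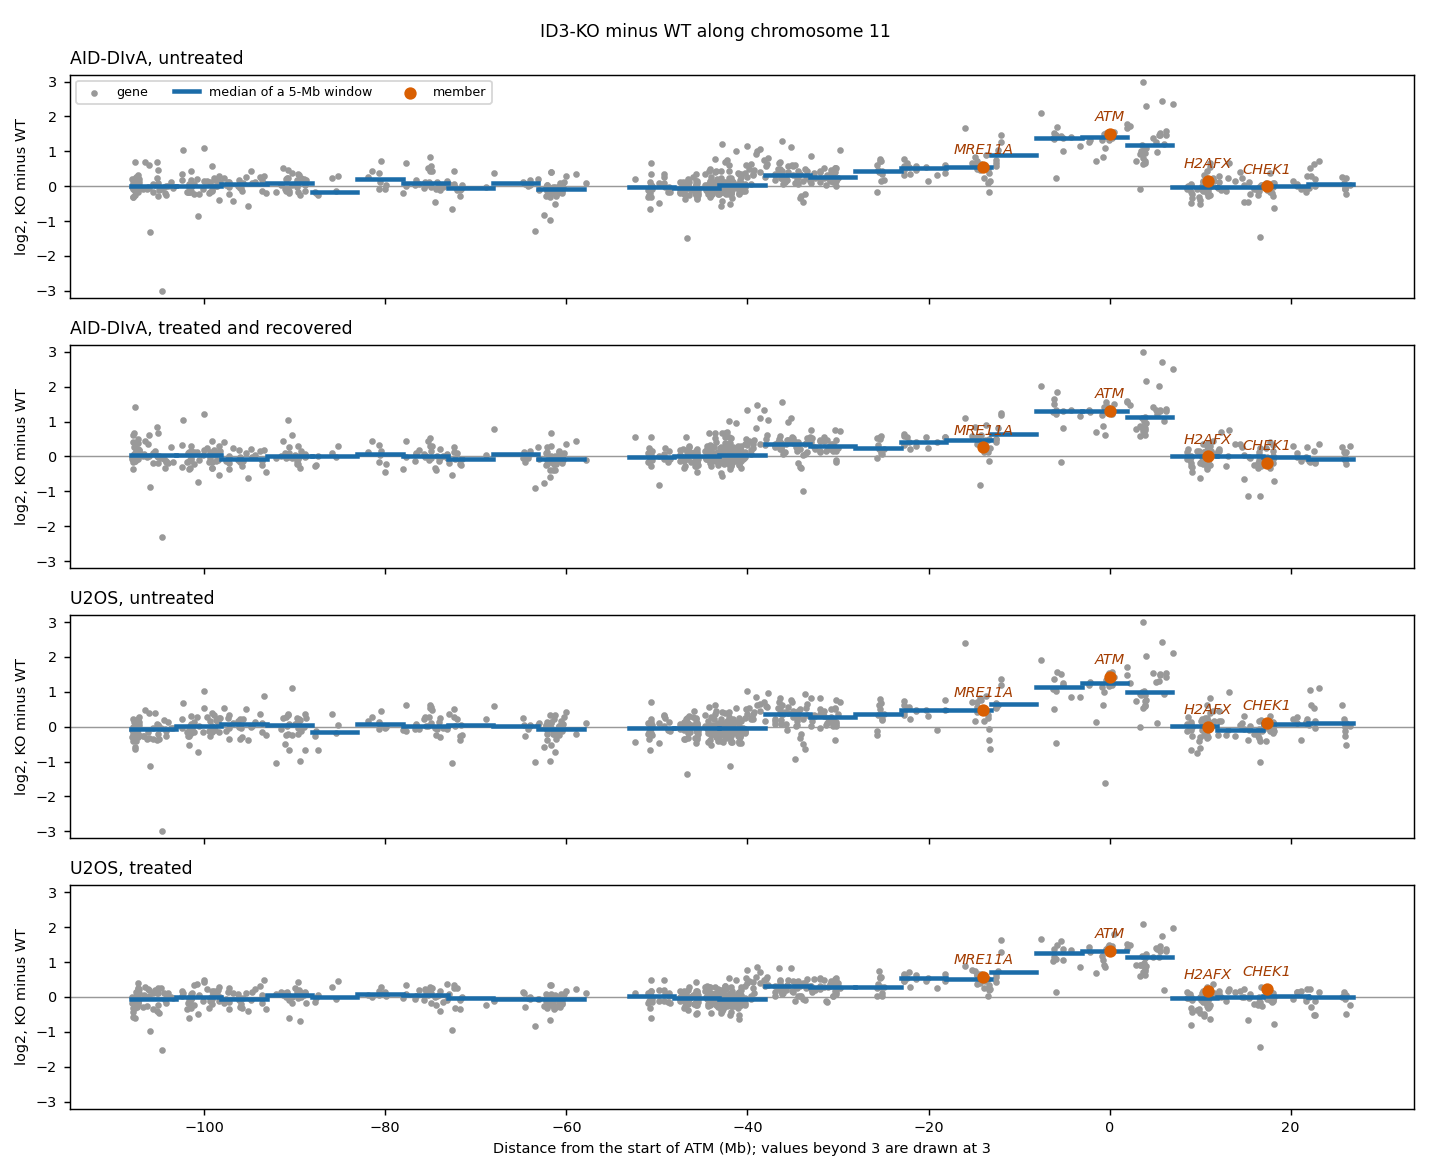
ID3-KO minus WT log2 difference (vertical axis) of genes on chromosome 11 by distance from the ATM start in Mb (horizontal axis), in 4 comparisons. Grey points are genes, blue lines are medians of 5-Mb windows and orange points are ATM, MRE11A, H2AFX and CHEK1; window medians around ATM are 1.25 to 1.42 and fall to near 0 before H2AFX.

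Treated cells were compared with untreated cells of the same genotype. By edgeR, 0 of the 10 genes changed beyond 2-fold, where 7.38% and 7.46% of all genes did in AID-DIvA WT and KO cells and 18.6% and 20.3% in U2OS WT and KO cells. H2AFX, the histone whose phosphorylation marks DSBs, fell after recovery in both genotypes. In AID-DIvA WT cells it stood at 243, 265 and 272 CPM untreated and at 169.6, 189 and 183 CPM after treatment and recovery. The groups did not overlap, and H2AFX fell by 0.52 ± 0.05 on the log2 scale (adjusted p = 2.9e-06). In AID-DIvA KO cells it stood at 272, 262 and 344 CPM untreated and at 202, 179.5 and 166.5 after recovery, and fell by 0.68 ± 0.11 (adjusted p = 0.00082).

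NBN also fell after recovery, from 76.4, 76.7 and 78.0 CPM to 69.6, 62.5 and 57.8 in WT cells. The drop was 0.28 ± 0.06 (adjusted p = 0.0019) in WT and 0.41 ± 0.13 (adjusted p = 0.032) in KO cells. ATR, the kinase of the single-stranded DNA response, fell by 0.16 ± 0.05 (adjusted p = 0.027) in WT and by 0.41 ± 0.14 (adjusted p = 0.036) in KO cells. Of the 3 recovered KO libraries, replicate 1 had the lowest values of NBN at 45.6 CPM and of ATR at 29.8 CPM. Without it NBN fell by 0.25 (adjusted p = 0.0062) and ATR by 0.25 (adjusted p = 0.0097), both smaller by more than 1.5 times. Without KO untreated replicate 1, 2 or 3 the adjusted p was 0.097, 0.12 and 0.073 for NBN and 0.098, 0.14 and 0.075 for ATR, and for ATR it was 0.055 without recovered replicate 2. In WT cells the call of ATR was lost in 4 of the 6 fits that left out 1 library, namely untreated replicate 1 or 3 or recovered replicate 2 or 3 (adjusted p from 0.088 to 0.11).

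ATM was at -0.15 ± 0.05 in WT cells (adjusted p = 0.032), a call kept in 4 of 14 alternatives. It was lost with the replicate block (adjusted p = 0.062), by DESeq2 (adjusted p = 0.06), without a filter on low counts (adjusted p = 0.059) and in 5 of the 6 fits that left out 1 library, all but that without recovered replicate 1. In KO cells the ATM difference was -0.34 ± 0.13 (adjusted p = 0.056), and it passed in 5 of 14 alternatives. These were DESeq2 (adjusted p = 0.029), its size factors in edgeR (adjusted p = 0.049) and no filter on low counts (adjusted p = 0.00028). The others were the fits without recovered replicate 1 (-0.19, adjusted p = 0.026) or 3 (-0.41, adjusted p = 0.031). MDC1 rose by 0.20 ± 0.05 in WT cells (adjusted p = 0.0036), with untreated libraries at 234, 230.4 and 213 CPM and recovered libraries at 252, 253 and 268. In KO cells its difference was 0.10 ± 0.06 (adjusted p = 0.24). In WT cells 1 of the 10 genes rose and 4 fell, where 23.9% of all 20289 genes tested rose and 23% fell. In KO cells 0 rose and 3 fell, where 20.2% rose and 19.9% fell. CHEK1, CHEK2, MRE11A, RAD50 and RNF8 passed in neither genotype.

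The 54 G2/M genes of the Seurat cell cycle lists moved in the same libraries. Their median difference after recovery was -0.65 in WT and -0.92 in KO cells, with 52 lower in each. The 43 S-phase genes had medians of 0.12 and -0.07. The part of cell cycle composition in the fall of H2AFX, a histone gene, was not tested.

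**Figure D4:**
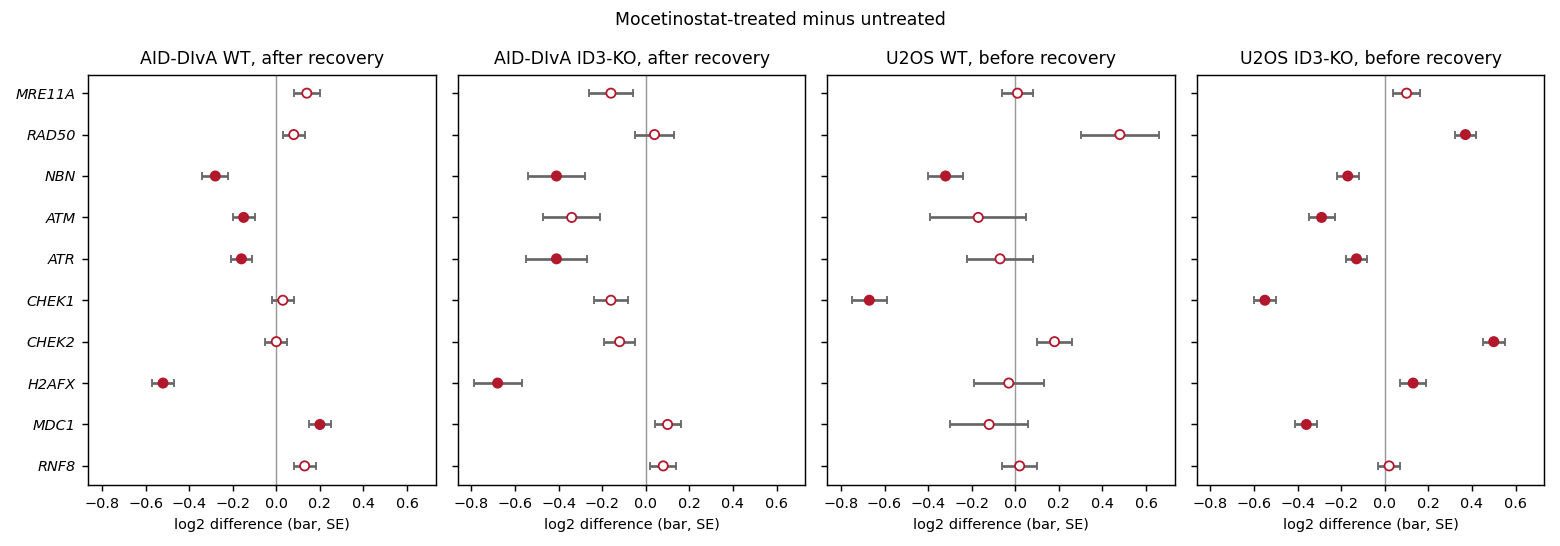
Mocetinostat-treated minus untreated log2 difference (horizontal axis) of each gene in 4 comparisons; bars are SE (n = 3 a group) and filled points have an adjusted p under 0.05. H2AFX is lowest after recovery, at -0.52 and -0.68, and CHEK1 before recovery, at -0.67 and -0.55.

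Before recovery CHEK1, the effector kinase below ATR, fell in both genotypes. In U2OS WT cells it stood at 42.6, 39.0 and 42.8 CPM untreated and at 27.1, 24.9 and 25.5 CPM treated. The groups were well apart, and CHEK1 fell by 0.67 ± 0.08 (adjusted p = 0.00025). In KO cells it went from 45.6, 45.2 and 43.8 CPM to 29.2, 31.8 and 30.2, a drop of 0.55 ± 0.05 (adjusted p = 1.2e-09). The 43 S-phase genes had medians of -0.59 in WT and -0.38 in KO cells in the same comparisons, and their part in the fall of CHEK1 was not tested.

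CHEK2, the effector kinase below ATM, did not move with CHEK1. In KO cells it rose from 23.9, 24.7 and 24.7 CPM to 34.5, 35.1 and 33.3, by 0.50 ± 0.05 (adjusted p = 1.1e-08). In WT cells the difference was 0.18 ± 0.08 (adjusted p = 0.11), and 0.25 without untreated replicate 1 (adjusted p = 4.3e-05). RAD50, the coiled-coil subunit of MRN, rose in KO cells from 45.3, 45.0 and 44.8 CPM to 55.1, 61.7 and 56.4, by 0.37 ± 0.05 (adjusted p = 7.8e-07). In WT cells its difference was 0.48 ± 0.18, with groups that did not overlap. It did not pass by edgeR (adjusted p = 0.054) but did by DESeq2 (adjusted p = 0.021). NBN fell, by 0.32 ± 0.08 in WT (adjusted p = 0.014) and 0.17 ± 0.05 in KO cells (adjusted p = 0.0036), while MRE11A passed in neither. The WT call of NBN was lost without treated replicate 1 (adjusted p = 0.065) or 2 (adjusted p = 0.067). In KO cells 1 subunit of the complex thus rose, 1 fell and 1 did not pass.

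In KO cells MDC1 fell by 0.36 ± 0.05 (adjusted p = 2.1e-07), ATM by 0.29 ± 0.06 (adjusted p = 0.00025) and ATR by 0.13 ± 0.05 (adjusted p = 0.034). H2AFX rose by 0.13 ± 0.06 (adjusted p = 0.043), although its groups overlapped. The call of ATR was lost in 3 of the 6 fits that left out 1 library, and was at -0.08 without treated replicate 1 (adjusted p = 0.17). That of H2AFX was lost in 5 of the 6, all but that without treated replicate 2, and was at 0.05 without treated replicate 1 (adjusted p = 0.34). KO cells thus had 3 genes higher and 5 lower, where 35.8% and 34% of all 21176 genes tested were higher and lower. WT cells had 0 higher and 2 lower, against 26% and 22.9% of 21797 genes.

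The WT counts rested on U2OS WT untreated replicate 1. Its RAD50 level was 28.2 CPM against 42.2 and 48.4 in the other two, its MDC1 level 139 CPM against 231 and 228, and its H2AFX level 407 CPM against 276 and 266. Without it 3 of the 10 genes were higher in treated WT cells and 5 lower, against 33.9% and 32.5% of all genes. RAD50 was then 0.29 higher (adjusted p = 2.1e-06), against 0.48 with all libraries. H2AFX was 0.19 higher (adjusted p = 2.2e-06), with the sign changed from -0.03. MDC1 fell by 0.33 (adjusted p = 3.5e-11), ATM by 0.43 (adjusted p = 3.8e-09) and ATR by 0.24 (adjusted p = 9.2e-06). Of the 8 genes called without this library, all 8 were also called in the KO, in the same direction. Over all genes 66.4% were called in that WT fit, and 35.8% were higher and 34% lower in the KO. The share of all genes called in both was not computed, so the shared calls cannot be read as particular to these genes.

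**Figure D5:**
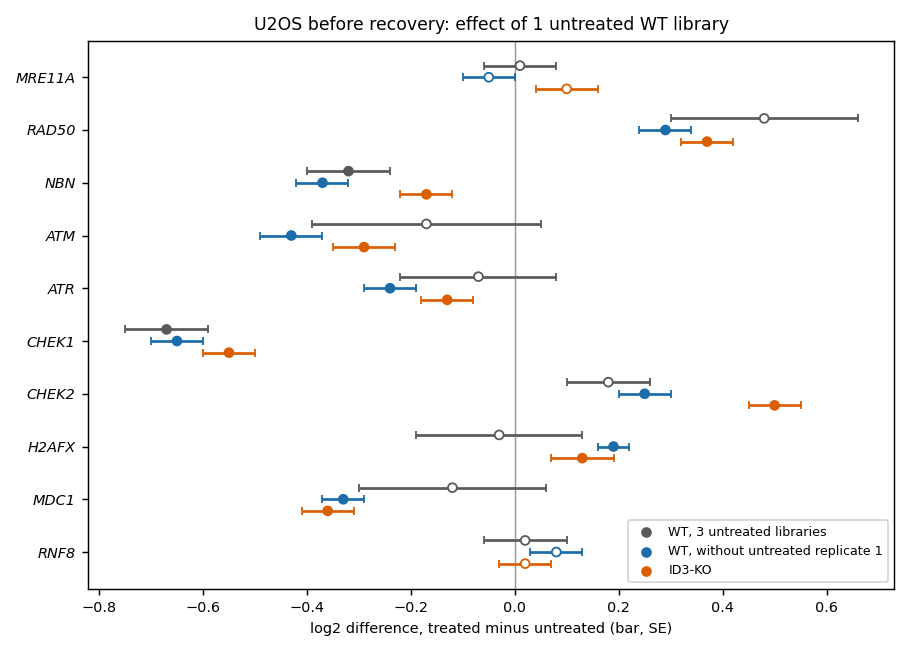
Treated minus untreated log2 difference (horizontal axis) in U2OS cells before recovery, for WT with all libraries (grey), WT without untreated replicate 1 (blue) and ID3-KO (orange); bars are SE and filled points have an adjusted p under 0.05. H2AFX moves from -0.03 to 0.19 in WT cells, beside 0.13 in the KO.

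Whether the response to mocetinostat differed between genotypes was tested as an interaction. By edgeR with all libraries of a set, 0 of the 10 genes passed in either set, where 1.21% of all genes passed in the AID-DIvA set and 2.15% in the U2OS set. At an unadjusted p under 0.05 there was 1 gene in each set, and DESeq2 called 0 in each. The share of all genes under either rule is not set beside these counts, so they cannot be read as particular to the 10 genes. In the AID-DIvA set the gene with an unadjusted p under 0.05 was MRE11A, at -0.29 with a 95% interval from -0.53 to -0.06 (adjusted p = 0.33). In the U2OS set it was CHEK2, at 0.32 with an interval from 0.13 to 0.51 (adjusted p = 0.12). CHEK2 passed without U2OS WT untreated replicate 1 (0.25, adjusted p = 0.025) and with all 24 libraries in one fit (0.32, adjusted p = 0.046), and missed the threshold in the other 18 of 20 alternatives. Over the remaining genes the bounds farthest from 0 were -0.57 for ATR in the AID-DIvA set and -0.62 for MDC1 in the U2OS set, so differences of that size could go undetected here.

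The response after recovery in AID-DIvA cells was also set against the response before recovery in U2OS cells. In WT cells CHEK1 differed by 0.70 ± 0.09 (adjusted p = 8.7e-07), since it fell before recovery and stood 0.03 ± 0.05 from untreated after it. H2AFX differed by -0.49 ± 0.17 (adjusted p = 0.021) and RAD50 by -0.40 ± 0.16 (adjusted p = 0.045), where 45.4% of all genes differed. The call of RAD50 was lost in 18 of the 24 fits that left out 1 library. Without U2OS WT untreated replicate 1, RAD50 stood at -0.20 (adjusted p = 0.1) and H2AFX at -0.70 (adjusted p = 9.8e-05), and MDC1 (0.54, adjusted p = 1.5e-06) and CHEK2 (-0.24, adjusted p = 0.014) passed as well. In KO cells CHEK1 differed by 0.40 ± 0.09 (adjusted p = 0.0011), MDC1 by 0.47 ± 0.16 (adjusted p = 0.018), CHEK2 by -0.61 ± 0.09 (adjusted p = 3.8e-06) and H2AFX by -0.80 ± 0.17 (adjusted p = 0.00036), where 46% of all genes differed. The KO call of MDC1 was lost without AID-DIvA KO recovered replicate 1 (0.40, adjusted p = 0.062). The KO comparison was fitted on all 24 libraries, U2OS WT untreated replicate 1 among them. Without that library RAD50 in KO cells passed at -0.31 (adjusted p = 0.0074), against -0.33 ± 0.16 (adjusted p = 0.1) with it. The WT call of H2AFX was lost without AID-DIvA WT recovered replicate 1 (adjusted p = 0.066) or U2OS WT untreated replicate 2 or 3 (adjusted p = 0.064 and 0.067). A positive value means a higher response in the recovered AID-DIvA cells.

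The untreated cells of the AID-DIvA and U2OS sets differed for several of the genes. All that passed with all libraries were higher in the AID-DIvA set. In WT cells 3 of 10 passed, against 13% of all genes higher, namely NBN at 0.69 ± 0.08 (adjusted p = 0.002), MRE11A at 0.41 ± 0.08 (adjusted p = 0.012) and CHEK1 at 0.30 ± 0.07 (adjusted p = 0.025). Without U2OS WT untreated replicate 1, 5 of 10 passed, with RAD50 at 0.25 (adjusted p = 2.3e-05) and ATR at 0.33 (adjusted p = 1.8e-08) added, whereas 1 of 10 passed without AID-DIvA WT untreated replicate 1 or 3. The share of all genes was not computed for these fits, so the change in count cannot be read as particular to the 10 genes. The call of CHEK1 was also lost without AID-DIvA WT untreated replicate 2 (adjusted p = 0.096) or U2OS WT untreated replicate 2 (adjusted p = 0.07) and with the replicate block (adjusted p = 0.069). In KO cells 7 of 10 passed, against 21.9% of all genes higher, and NBN led again at 0.53 ± 0.05 (adjusted p = 8.5e-07). The others were MRE11A, RAD50, ATM, ATR, CHEK1 and CHEK2. The KO call of CHEK2 (0.15, adjusted p = 0.029) was lost in 5 of the 6 fits that left out 1 library. That of CHEK1 was lost without U2OS KO untreated replicate 3 (adjusted p = 0.056). With all 24 libraries in one fit ATM (adjusted p = 0.13) and ATR (adjusted p = 0.054) did not pass. H2AFX, MDC1 and RNF8 passed in neither genotype with all libraries. Without AID-DIvA KO untreated replicate 3, H2AFX passed as lower in the AID-DIvA KO cells, at -0.24 (adjusted p = 2.1e-06). The 54 G2/M genes had medians of 0.60 in WT and 0.44 in KO cells in these comparisons, and batch and cell line label cannot be told apart.

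A wider list of 42 genes of the pathway gave the surroundings of the 10. After recovery 10 of 42 rose and 13 fell in WT cells, where 23.9% of all genes rose and 23% fell. In KO cells 5 rose and 13 fell, where 20.2% and 19.9% of all genes did. BRE, a scaffold of the BRCA1-A complex that is also named BABAM2, rose in all 4 treatment comparisons. After recovery it went from a mean of 54.6 to 192.9 CPM in WT (1.83 ± 0.06, adjusted p = 9e-11) and rose by 1.39 ± 0.06 in KO cells (adjusted p = 3.7e-07). Before recovery it rose by 0.74 and 0.54. CDC25C and CDC25B, phosphatases that the checkpoint kinases inhibit, fell after recovery, CDC25C by 0.94 ± 0.06 in WT and 1.2 ± 0.08 in KO cells and CDC25B by 0.83 ± 0.05 and 0.98 ± 0.06.

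Before recovery 3 of the 42 genes rose and 16 fell in WT cells, where 26% of all genes rose and 22.9% fell. Without U2OS WT untreated replicate 1, 7 rose and 27 fell, against 33.9% and 32.5% of all genes. In KO cells 7 rose and 25 fell, against 35.8% and 34% of all genes. FAM175A, the BRCA1-A subunit also named ABRAXAS1, rose by 0.82 ± 0.08 in WT and 0.81 ± 0.06 in KO cells, and RNF168, the ubiquitin ligase that acts after RNF8, by 0.34 ± 0.09 and 0.30 ± 0.04. KAT5, the acetyltransferase that activates ATM, fell by 1.10 ± 0.07 and 1.24 ± 0.06. TIMELESS, of the fork protection complex, fell by 0.80 ± 0.04 in KO cells (adjusted p = 5.8e-14). The checkpoint effectors had 5 of 6 members lower in each genotype and 0 higher. Of the 3 end resection genes, 0 were higher and 1 lower in WT cells, 1 higher and 1 lower without that library, and 2 higher and 1 lower in KO cells. Over all genes tested the median difference was between -0.02 and 0.01 in the 4 comparisons.

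The genes most like each of the 10 across the 24 libraries were ranked by Pearson correlation of log2 CPM. The libraries share groups and batches, so these values describe the pattern only. For ATM they were ZW10 (0.977), ALG9 (0.975) and NPAT (0.975), all on chromosome 11 between 108 and 114 Mb, within the raised stretch. CHORDC1, also on chromosome 11, was second for MRE11A (0.964) after PTER (0.966). For CHEK1 they were SMEK1 (0.986), RRM1 (0.985), a subunit of ribonucleotide reductase, and SNX5 (0.984). For H2AFX they were ITPK1 (0.982), ASF1B (0.956), a histone chaperone, and WRNIP1 (0.942). RNF8, the flattest gene, had the weakest partners, with 0.820 for MRPL32.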

How the data were processed

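The authors aligned paired reads of stranded total RNA libraries to GRCh37 with STAR and deposited featureCounts tables of raw counts per gene, from either strand and from each strand, with FPKM and TPM columns that were not used here. The methods name a lifted GENCODE annotation. Read trimming and tool versions are not given in the sources used here. The deposited either-strand counts were tested. Library totals ran from 37878751 to 76906266. Levels are CPM after TMM scaling over 24 libraries.

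For every comparison edgeR 4.0.16 in R 4.3.3 was run on the libraries of the groups involved (filterByExpr, TMM, robust quasi-likelihood test), with Benjamini-Hochberg adjustment over all genes tested and a threshold of 0.05. The fit was checked on simulated counts, where most changes of the smaller size set were missed and the share of false calls was above the threshold in most of the comparisons simulated. DESeq2 1.42.0, other scalings and filters, reverse-strand counts, a replicate block, a fold threshold, a fit of all libraries and the omission of each library were the alternatives. The genes around members, and fits without the libraries in doubt, were added after seeing the data. The 10 genes and all lists were chosen with earlier results of these data known.

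Named genes of the wider list were, per treatment comparison, at most 3 called in each direction with the largest differences, at 1 CPM or more. One gene that this rule named is not reported here. Correlations used genes of at least 5 CPM. The replicates were separate samples per the labels, and p-values measure the spread between them. Replicate pairs differed by at least 2.62 times the counting noise per gene. That value cannot tell separate cultures from separate preparations of the same culture, so counting each as a separate sample rests on the labels. Intervals cover the spread between replicates. Promoter sequences are from RefSeq.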

Additional observations from a re-analysis of the deposited data

Results flagged for a closer look

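The response of 5 genes to mocetinostat differed between the recovered AID-DIvA cells and the U2OS cells collected before recovery, by a test of the difference itself (edgeR). The differences below are AID-DIvA minus U2OS on the log2 scale. In WT cells they were 0.70 for CHEK1, -0.49 for H2AFX and -0.40 for RAD50. In KO cells they were 0.40 for CHEK1, 0.47 for MDC1, -0.61 for CHEK2 and -0.80 for H2AFX. The WT values include U2OS WT untreated replicate 1, and without it they were 0.69 for CHEK1, -0.70 for H2AFX and -0.20 for RAD50, of which RAD50 no longer passed (adjusted p = 0.1). RAD50 was lost in 18 of the 24 fits that left out 1 library. H2AFX in WT cells was lost without AID-DIvA WT recovered replicate 1 (adjusted p = 0.066) or U2OS WT untreated replicate 2 or 3 (adjusted p = 0.064 and 0.067). MDC1 in KO cells was lost without AID-DIvA KO recovered replicate 1 (adjusted p = 0.062). The KO values come from a fit that also holds U2OS WT untreated replicate 1. Without that library RAD50 in KO cells passed as well (-0.31, adjusted p = 0.0074). Stage of collection and cell line label cannot be told apart in these differences, and all 7 depend on taking the AID-DIvA groups from the titles.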

How the results depend on the processing

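Over 2420 values of the 10 genes under the alternatives, 2188 kept direction and side of the threshold, 103 lost their call, 52 gained one and 77 changed sign. In 75 of the 77 neither value had a call. The 2 others were H2AFX without U2OS WT untreated replicate 1, at 0.19 in the WT treatment comparison and 0.22 in the genotype comparison of untreated cells. ATM was higher in the KO under all alternatives of the 4 genotype comparisons, and H2AFX lower after recovery and CHEK1 lower before it under all of theirs. The cause of changes was not tested.

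The counts of called genes moved as follows, with no share over all genes set beside them. With a test against a fold of 1.2, the AID-DIvA WT treatment comparison had 0 higher and 1 lower, the KO 1 lower, the U2OS WT 1 lower and the U2OS KO 2 lower, where smaller changes cannot pass by construction. With that test 2 were higher in the KO of treated U2OS cells, 0 lower in the WT and 0 higher in the KO responses of both sets, and 1 and 2 higher between untreated WT and KO cells. With all 24 libraries in one fit, the AID-DIvA WT treatment comparison had 0 higher and 2 lower, the U2OS WT 2 higher and the U2OS KO 2 lower. That fit also gave 2 higher in the KO of recovered AID-DIvA cells, 1 lower in untreated U2OS cells, 1 higher in the U2OS interaction and 5 higher in untreated AID-DIvA WT cells. With at least 10 counts in every library, 2 were higher in AID-DIvA WT and 1 in U2OS WT cells. DESeq2 called 1 higher in treated U2OS WT cells and 1 lower in the KO of recovered AID-DIvA cells, and its size factors in edgeR called 1 higher in treated U2OS WT cells. Without a filter 2 were higher and 1 lower in the KO of recovered AID-DIvA cells and 2 higher in the WT responses of both sets. Reverse-strand counts called 2 higher in the KO of recovered AID-DIvA cells.

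Correlations of same-numbered deviations lay between -0.123 and 0.0508, so no strong shared shift of same-numbered samples was seen. These values cannot show whether same-numbered samples were handled together. With the replicate block 1 gene, not 0, was higher in treated U2OS WT cells, and H2AFX changed sign to 0.02 between genotypes in untreated U2OS cells. No other count moved by over 1.5 times. The block ended 2 calls, ATM in the AID-DIvA WT treatment comparison (adjusted p = 0.062) and CHEK1 between untreated WT cells of both sets (adjusted p = 0.069), and made 1, RAD50 in treated U2OS WT cells (0.51, adjusted p = 0.042).

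Leaving out each library in turn changed several counts, which are given here without the share over all genes. For the AID-DIvA WT treatment comparison the counts were higher 1 to 2 and lower 2 to 4. For the AID-DIvA KO treatment comparison the counts were lower 1 to 4. For the U2OS WT treatment comparison the counts were higher 0 to 3 and lower 1 to 5. For the genotype comparison of recovered AID-DIvA cells the counts were higher 1 to 2 and lower 0 to 1. For the genotype comparison of untreated U2OS cells the counts were higher 2 to 4 and lower 0 to 1. For the U2OS interaction the counts were higher 0 to 1. For the WT responses of both sets the counts were higher 1 to 2 and lower 1 to 2. For the KO responses of both sets the counts were higher 1 to 2. For untreated WT cells of both sets the counts were higher 1 to 5. For untreated KO cells of both sets the counts were lower 0 to 1. Signs changed for genes near 0. For the AID-DIvA WT treatment comparison the ranges were CHEK1 -0.02 to 0.06 and CHEK2 -0.03 to 0.03. For the AID-DIvA KO treatment comparison the range was RAD50 -0.02 to 0.12. For the U2OS WT treatment comparison the ranges were MRE11A -0.05 to 0.03, ATR -0.24 to 0.04, H2AFX -0.15 to 0.19 and RNF8 -0.03 to 0.08. For the U2OS KO treatment comparison the range was RNF8 -0.03 to 0.04. For the genotype comparison of untreated AID-DIvA cells the ranges were NBN -0.04 to 0.02, CHEK1 -0.02 to 0.03 and MDC1 -0.04 to 0.03. For the genotype comparison of recovered AID-DIvA cells the ranges were RAD50 -0.02 to 0.09, NBN -0.24 to 0.01 and H2AFX -0.07 to 0.07. For the genotype comparison of untreated U2OS cells the ranges were RAD50 -0.00 to 0.35, ATR -0.08 to 0.20, H2AFX -0.12 to 0.22 and RNF8 -0.11 to 0.01. For the genotype comparison of treated U2OS cells the range was MDC1 -0.01 to 0.07. For the AID-DIvA interaction the ranges were RAD50 -0.09 to 0.04, NBN -0.22 to 0.03 and RNF8 -0.07 to 0.01. For the U2OS interaction the ranges were RAD50 -0.28 to 0.07, ATM -0.26 to 0.13, ATR -0.17 to 0.11, H2AFX -0.06 to 0.28 and RNF8 -0.07 to 0.05. For the WT responses of both sets the ranges were NBN -0.02 to 0.12, ATM -0.12 to 0.29 and ATR -0.20 to 0.09. For the KO responses of both sets the range was ATM -0.14 to 0.09. For untreated WT cells of both sets the ranges were ATM -0.01 to 0.39, CHEK2 -0.02 to 0.10, MDC1 -0.00 to 0.31 and RNF8 -0.03 to 0.10. For untreated KO cells of both sets the range was RNF8 -0.04 to 0.03.

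Other sign changes were small. CHEK2 in AID-DIvA WT treatment was 0.00 with at least 10 counts. MRE11A in U2OS WT treatment was -0.00 by DESeq2, by its size factors and with all libraries. CHEK1 in untreated AID-DIvA genotypes was 0.01 without a filter and 0.02 with all libraries. H2AFX in recovered AID-DIvA genotypes was 0.01 by DESeq2, by its size factors and with at least 10 counts, and 0.02 without a filter and with all libraries. In untreated U2OS genotypes it was 0.01 without a filter and with reverse-strand counts. RNF8 in the U2OS interaction was -0.01 with reverse-strand counts. Between the WT responses of both sets NBN was -0.00 and ATM -0.01 with at least 10 counts.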
